A study of Schmidtea mediterranea with 6 samples.

Results

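The subject is a pair of PIWI genes of the planarian Schmidtea mediterranea, smedwi-2 (SMESG000069984.1) and smedwi-3 (SMESG000081970.1). They were taken by their gene identifiers and are 2 of the 30917 gene models counted. RNA was sequenced from X1 cells, the fraction of dissociated animals that flow cytometry isolates for its cycling, irradiation-sensitive stem cells, called neoblasts. In the exoc3(RNAi) group the injected double-stranded RNA matched Smed-exoc3, which encodes an exocyst subunit and is the planarian para-ortholog of vertebrate Tnfaip2. In the gfp(RNAi) group it matched gfp, which has no counterpart in the planarian genome. Animals of both groups were of the asexual biotype, were starved, received the same rounds of injections and were sampled on the same day of the protocol, and each group had 3 libraries. RNA interference lowers an mRNA without removing the gene, and it reaches the whole animal, so tissues around the X1 cells were exposed too. Knockdown outside X1 cells was not measured in these libraries.

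PIWI proteins are argonaute-family proteins that carry piRNAs, short RNAs that guide them to matching transcripts, and they are best known for silencing transposons in germ cells. In planarians they are abundant in the somatic stem cells. SMEDWI-2 acts in the nucleus, whereas SMEDWI-3 acts in the cytoplasm on transposon and other transcripts, and loss of either is known to end regeneration because the neoblasts fail to renew tissues. The third widely used family member, smedwi-1, was not analysed here because its identifier was not among the names used. The study's annotation gave PAZ and Piwi domains, the hallmark of the family, to both genes.

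Library totals ran from 28897363 to 37525894 reads assigned to genes in the exoc3(RNAi) group and from 31390710 to 33805416 in the gfp(RNAi) group. Values below are counts per 1000000 assigned reads (CPM) unless stated otherwise. Log2 fold changes come from edgeR on TMM-scaled counts, with exoc3(RNAi) over gfp(RNAi), and a gene was called at a Benjamini-Hochberg adjusted p under 0.05. Smed-exoc3 itself measured 32.3, 31.7 and 43.5 CPM in the exoc3(RNAi) libraries, against 68.4, 72.9 and 71.6 CPM in the gfp(RNAi) libraries, and the groups did not overlap. Its mRNA was therefore still present, at 44.7% to 61.4% of the gfp(RNAi) mean. The log2 fold change was -1.04 (SE 0.087, adjusted p = 5.7e-07 by edgeR). The exoc3(RNAi) library of replicate 3 stood apart from the others of its group. Chi-square per degree of freedom over genes was 7.75 and 7.05 between it and replicates 1 and 2, which differed from each other by 1.36, and results are also given without it.

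Both PIWI genes were lower in X1 cells of exoc3(RNAi) animals, smedwi-2 by 28.4% and smedwi-3 by 16.6% on the TMM scale of the fold changes. For smedwi-2, 3563, 3620 and 3390 CPM were measured in the exoc3(RNAi) libraries, against 4802, 4753 and 4681 CPM in the gfp(RNAi) libraries. The highest exoc3(RNAi) library lay 1061 CPM below the lowest gfp(RNAi) library. Group means were 3524 ± 120 CPM in exoc3(RNAi) and 4745 ± 60.6 CPM in gfp(RNAi) (SD, n = 3 each). The log2 fold change was -0.48 (SE 0.032), with an adjusted p of 8.7e-08 by edgeR.

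The decrease of smedwi-3 was smaller but again left a gap between the groups. It measured 2772, 2837 and 2615 CPM in the exoc3(RNAi) libraries, against 3163, 3204 and 3143 CPM in the gfp(RNAi) libraries. Here the nearest libraries of the groups were 307 CPM apart. The means were 2741 ± 114 CPM in exoc3(RNAi) and 3170 ± 30.9 CPM in gfp(RNAi) (SD, n = 3 each). The log2 fold change was -0.26 (SE 0.034), with an adjusted p of 2.5e-05 by edgeR. This call was lost when a fold above 1.2 was required (adjusted p = 0.57), whereas smedwi-2 kept its call under that requirement (adjusted p = 2.6e-05).

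**Figure D1:**
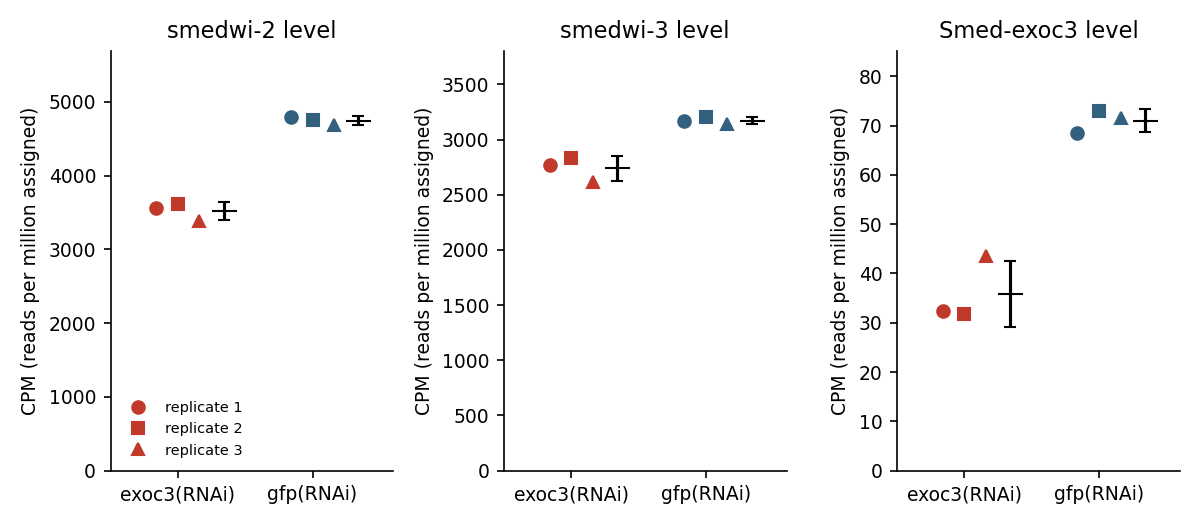
Level of smedwi-2, smedwi-3 and Smed-exoc3 in counts per 1000000 assigned reads (CPM, y axis from 0) in each library of the exoc3(RNAi) and gfp(RNAi) groups, with the mean and SD of 3 libraries in black. All 3 exoc3(RNAi) libraries lie below all 3 gfp(RNAi) libraries for each gene, and replicate 3 of exoc3(RNAi) is the lowest for both smedwi genes and the highest of its group for Smed-exoc3.

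At this abundance counting error was small beside the spread between libraries. The libraries held 81972 to 158251 reads of either gene, and exact (Clopper-Pearson) 95% intervals reached 16.8 to 24.1 CPM to each side of a value. Such intervals cover counting error only. Coefficients of variation between libraries were 3.40% in exoc3(RNAi) and 1.28% in gfp(RNAi) for smedwi-2, and 4.16% in exoc3(RNAi) and 0.974% in gfp(RNAi) for smedwi-3. Counting alone would give 0.254% to 0.330%, below the spread seen in each group.

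Replicate 3 of exoc3(RNAi), which held the lowest level of both genes, had the highest level of Smed-exoc3 in its group. Without it the log2 fold change was -0.45 for smedwi-2 and -0.23 for smedwi-3, and both stayed below an adjusted p of 0.05 by edgeR (5e-20 and 1.3e-11). The test draws the spread of a gene partly from all genes, so these smaller p-values are not a measure of stronger decreases. Both decreases were thus present without this library, in smaller size.

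Across the transcriptome, 7784 of 14700 genes tested were called (53.0%), of which 3795 were higher (25.8% of those tested) and 3989 lower (27.1%). The split depended on scaling, with 5025 higher and 3222 lower under upper quartile factors. A call was therefore a common outcome, and groups without overlap on the TMM scale were found for 60.8% of genes. The place of the smedwi genes among all genes is given as a description. For comparison, 10.4% of genes tested had a more negative log2 fold change than smedwi-2, and 23.9% had one more negative than smedwi-3. Among the 100 genes of highest mean CPM, 3 were more negative than smedwi-2 and 9 more negative than smedwi-3. That set held 58 genes called higher and 21 called lower, with a median log2 fold change of 0.10, compared with 0.02 over all genes tested. In plain CPM, the loss of 1221 CPM by smedwi-2 was the 5th largest of all gene models, and the loss of 429 CPM by smedwi-3 the 9th largest.

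**Figure D2:**
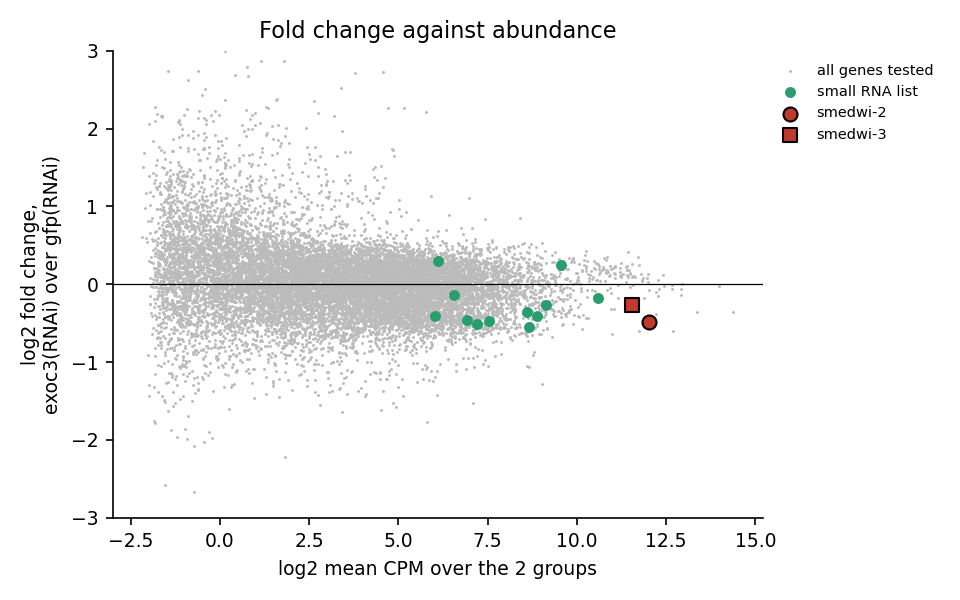
Log2 fold change, exoc3(RNAi) over gfp(RNAi), against log2 mean CPM for all 14700 genes tested (grey), with the 12 genes of the small RNA list in green and both smedwi genes in red. The smedwi genes lie at the abundant end and below most genes of like abundance; 13 genes with a log2 fold change beyond 3 in either direction are outside the axis.

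Both genes were among the most abundant transcripts of X1 cells in every library, and both took a lower place in exoc3(RNAi). Ranked by reads per gene among all 30917 models, smedwi-2 was 28th, 28th and 29th in the exoc3(RNAi) libraries, against 16th, 16th and 17th in the gfp(RNAi) libraries. For smedwi-3 the ranks were 47, 47 and 51 in exoc3(RNAi) and 28 in each gfp(RNAi) library. Ranks did not overlap between groups for either gene. Together the pair took 0.600% to 0.646% of all assigned reads in exoc3(RNAi) and 0.782% to 0.796% in gfp(RNAi). These ranks are by reads and not per transcript length, since lengths were not used here.

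**Figure D3:**
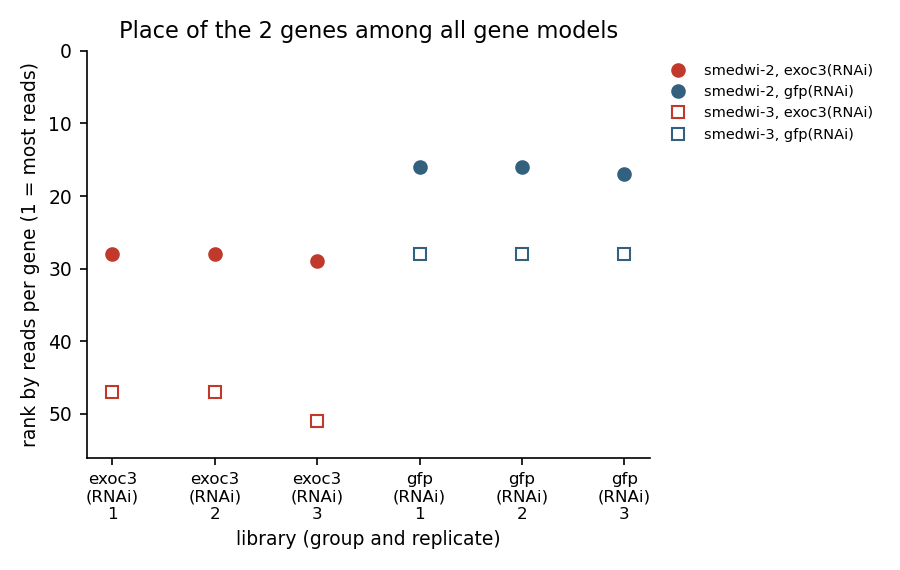
Rank of smedwi-2 (circles) and smedwi-3 (open squares) by reads per gene among 30917 gene models, with rank 1 at the top, in each exoc3(RNAi) library (red) and gfp(RNAi) library (blue). In exoc3(RNAi) smedwi-2 lies at ranks 28 to 29 and smedwi-3 at ranks 47 to 51, whereas in gfp(RNAi) they lie at 16 to 17 and at 28.

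Most genes that passed the smedwi genes in rank were called higher or were not called. By group means, 12 genes below smedwi-2 in gfp(RNAi) were above it in exoc3(RNAi), and smedwi-2 passed none. Of the 12, 6 were called higher, 2 lower and 4 not called, and 7 of the 8 with a name were ribosomal protein genes. Likewise 19 genes passed smedwi-3, of which 17 were called higher and 2 were not called, and 8 of the 11 with a name encoded ribosomal proteins. Passing requires a change less negative than that of the smedwi gene, so this choice itself favours genes called higher. Among the 100 genes of highest mean CPM, 58 were called higher and 21 lower. The share of ribosomal protein genes among abundant genes with a name was not counted. The largest rises among the genes that passed, picked after their values were seen, were those of RPL27A and histone H2A.1. RPL27A, a ribosomal protein gene, passed both smedwi genes, with a log2 fold change of 0.34 (SE 0.034, adjusted p = 2.2e-06 by edgeR). Histone H2A.1 passed smedwi-3, with 0.42 (SE 0.030, adjusted p = 1.5e-07 by edgeR). The stem cell gene KHD-1 passed smedwi-2 while itself falling by 0.17 on the log2 scale.

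The neighbours in mean abundance behaved differently from one another. Above smedwi-2 stood HSPD1, the mitochondrial chaperonin Hsp60, with 4239 CPM in exoc3(RNAi) and 5301 CPM in gfp(RNAi) (log2 fold change -0.38), and RPL5 with a log2 fold change of -0.10. Below it came RPL7A with -0.08 and RPS2 with 0.13. HSPD1 was thus the only one of the 4 with a decrease near that of smedwi-2. Around smedwi-3, RPL21 and RPL18 stood above with log2 fold changes of 0.09 and 0.26, and the unnamed SMESG000022296.1 and SMESG000060163.1 below with -0.03 (adjusted p = 0.33, not called) and 0.14. None of these 4 was called lower, so smedwi-3 fell where its neighbours did not.

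Whether the PIWI genes changed in step was examined by the ratio of their reads within each library, which needs no scaling between libraries. The ratio itself still holds the unequal lengths of the transcripts, which cancel only in the difference between groups. The ratio of smedwi-2 to smedwi-3 was 1.28, 1.28 and 1.30 in exoc3(RNAi), against 1.52, 1.48 and 1.49 in gfp(RNAi). All exoc3(RNAi) libraries had a lower ratio than all gfp(RNAi) libraries. Mean log2 ratios were 0.363 ± 0.011 in exoc3(RNAi) and 0.582 ± 0.018 in gfp(RNAi) (SD, n = 3 each), a difference of -0.22. By an exact permutation test (two-sided) p was 0.1, which is as low as 3 libraries against 3 can reach. When edgeR was run with the reads of smedwi-3 as the scaling of each library, a test added after the data were seen, smedwi-2 had a log2 fold change of -0.22 (SE 0.034, adjusted p = 0.00024). Replicate 3 of exoc3(RNAi), low for both genes, had a ratio close to those of replicates 1 and 2.

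**Figure D4:**
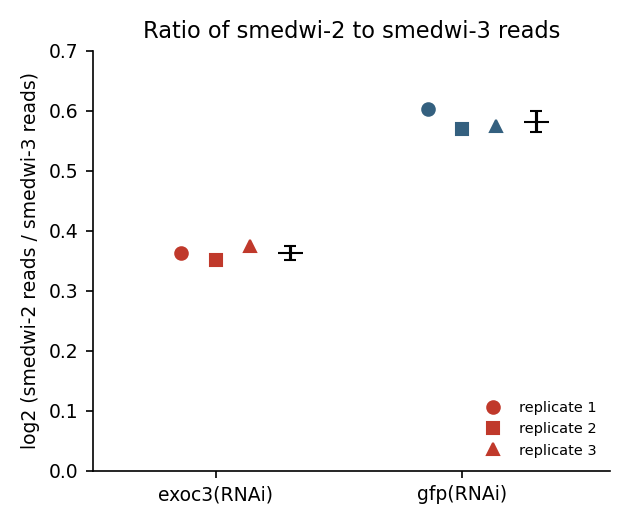
Log2 ratio of smedwi-2 reads to smedwi-3 reads (y axis from 0) in each exoc3(RNAi) and gfp(RNAi) library, with the mean and SD of 3 libraries in black. The exoc3(RNAi) libraries lie between 0.35 and 0.37 and the gfp(RNAi) libraries between 0.57 and 0.60.

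The same ratio was then taken against other transcripts, as a description. Against argonaute-2, the argonaute of the siRNA and miRNA pathways, smedwi-2 had 33.2 to 34.4 reads per read in exoc3(RNAi) and 33.7 to 34.9 in gfp(RNAi), ranges that overlapped. Against vasa-2, a DEAD-box helicase, smedwi-2 had 4.19 to 4.32 reads per read in exoc3(RNAi) and 6.92 to 7.33 in gfp(RNAi), the largest shift of log2 ratio for smedwi-2 among the 7 comparisons made (-0.73). Against the summed reads of 12 cell cycle genes, smedwi-3 ranged from 0.747 to 0.787 in exoc3(RNAi) and from 0.770 to 0.788 in gfp(RNAi), so that these ranges overlapped. For smedwi-2 the corresponding ratio was 0.960 to 1.02 in exoc3(RNAi) and 1.15 to 1.195 in gfp(RNAi), without overlap. A single gene, RNRL, a subunit of ribonucleotide reductase, gave 1381 CPM of that sum in exoc3(RNAi) and 1481 CPM in gfp(RNAi), with a log2 fold change of -0.15. In the other 6 comparisons of smedwi-3 the groups did not overlap. They included a higher ratio to argonaute-2, with 26.0 to 26.6 in exoc3(RNAi) and 22.2 to 23.5 in gfp(RNAi). Ratios were lower to vasa-2 (log2 difference -0.51) and to the cell cycle gene cyclin B (-0.47). Both vasa-2 and cyclin B were themselves called higher, with log2 fold changes of 0.25 and 0.21 in that order.

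Genes that act with PIWI proteins or in the sister small RNA pathways were mostly lower too. All 12 genes of a small RNA list were called, 10 lower and 2 higher, where 53.0% of all genes tested were called, 27.1% lower and 25.8% higher. Its genes had a median log2 fold change of -0.38, beside 0.02 over all genes tested. The list could draw only on genes the study annotated in the tables used, mostly genes that it had called changed in these libraries, so its count is not independent evidence. With a fold above 1.2 required, 6 of the 12 were called, beside 21.4% of all genes tested.

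Of the argonautes and their partners, argonaute-2 measured 104, 109 and 98.5 CPM in exoc3(RNAi), against 143, 136 and 135 CPM in gfp(RNAi), with a log2 fold change of -0.46 (SE 0.044, adjusted p = 1.6e-06 by edgeR). DICER1, the RNase III enzyme that cuts siRNA and miRNA precursors, measured 165, 164 and 149 CPM in exoc3(RNAi), against 208, 216 and 214 CPM in gfp(RNAi), with a log2 fold change of -0.47. Both decreases were close in size to that of smedwi-2. A further gene annotated with a Piwi domain and an argonaute N-terminal domain, SMESG000050994.1, measured 57.5 ± 1.34 CPM in exoc3(RNAi) and 73.3 ± 0.590 CPM in gfp(RNAi) (SD, n = 3 each), with a log2 fold change of -0.40.

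Tudor domain proteins, which bind the methylated arginines of PIWI proteins, went both ways. TDRD12, in mouse a piRNA pathway helicase, measured 425, 431 and 380 CPM in exoc3(RNAi), against 523, 530 and 527 CPM in gfp(RNAi) (log2 fold change -0.41). TDRD9, another helicase of the mouse pathway, had a log2 fold change of -0.36. The unnamed Tudor genes SMESG000031739.1, which also has a KH domain, and SMESG000043684.1, which also has an RNA recognition motif, had log2 fold changes of -0.50 and -0.26, near those of smedwi-2 and smedwi-3 in that order. SND1, a Tudor and staphylococcal nuclease domain protein, measured 310, 316 and 383 CPM in exoc3(RNAi), against 474, 476 and 469 CPM in gfp(RNAi) (log2 fold change -0.55). Its replicate 3 of exoc3(RNAi) was the highest of the group, the reverse of the smedwi genes. TDRD5, in mouse a piRNA pathway protein, was higher, with 77.3, 75.8 and 79.1 CPM in exoc3(RNAi) and 59.3, 60.9 and 61.8 CPM in gfp(RNAi) (log2 fold change 0.30, adjusted p = 1.3e-05 by edgeR).

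Among RNA helicases, vasa-1 and vasa-2, members of the DEAD-box family, moved in opposite directions. The level of vasa-1 was 1458 ± 105 CPM in exoc3(RNAi) and 1594 ± 24.4 CPM in gfp(RNAi) (SD, n = 3 each), a log2 fold change of -0.18, whereas vasa-2 averaged 826 ± 35.7 CPM in exoc3(RNAi) and 670 ± 12.9 CPM in gfp(RNAi) (SD, n = 3 each), a log2 fold change of 0.25. MOV10L1, a helicase that handles piRNA precursors in mouse, measured 90.9 ± 4.34 CPM in exoc3(RNAi) and 96.4 ± 2.38 CPM in gfp(RNAi) (SD, n = 3 each). Its log2 fold change of -0.14 (adjusted p = 0.014 by edgeR) lost its call with library size as the only scaling (adjusted p = 0.091), with upper quartile factors (0.2), with a filter of 10 CPM (0.052) and without replicate 3 of gfp(RNAi) (0.061).

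**Figure D5:**
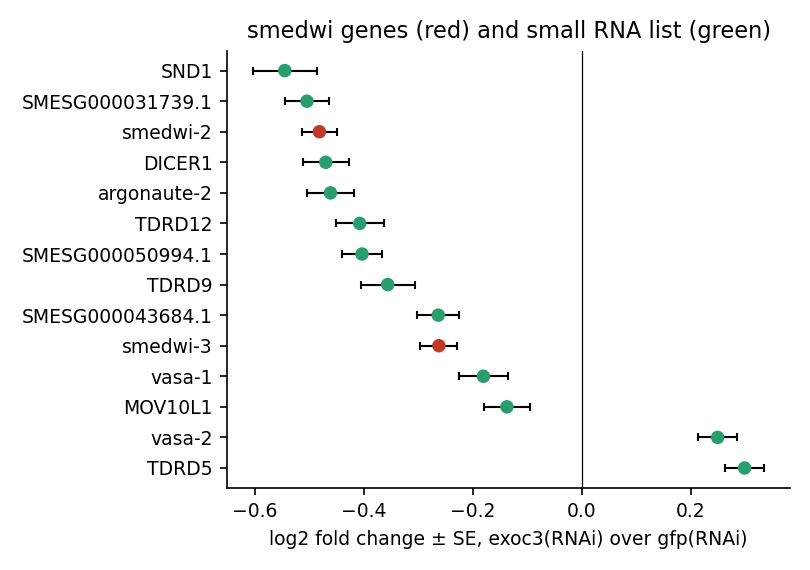
Log2 fold change, exoc3(RNAi) over gfp(RNAi), with its SE (bars) for smedwi-2 and smedwi-3 (red) and the 12 genes of the small RNA list (green), ordered by size with the most negative at the top. Only vasa-2 (0.25) and TDRD5 (0.30) lie above 0, and smedwi-2 lies between SMESG000031739.1 (-0.50) and DICER1 (-0.47).

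The other lists of stem cell genes were mixed in direction, and all of their genes were called, for the same reason of choice as in the small RNA list. Over all genes tested, 53.0% were called, 27.1% lower and 25.8% higher, with a median log2 fold change of 0.02. Of 12 stem cell regulators, 8 were lower and 4 higher, with a median log2 fold change of -0.18. The sox transcription factor soxP-2 (-0.48) was closest to smedwi-2, SZ12-1 (-0.27) was closest to smedwi-3, and the bHLH factor TCF15 (0.41) had the largest rise. With a fold above 1.2 required, 3 of the 12 were called, a share near the 21.4% of all genes. More of the lists described below stayed called under that requirement, with 10 of 15 chromatin regulators, 8 of 12 cell cycle genes and 19 of 20 epidermal genes. Of 15 chromatin regulators, 9 were lower and 6 higher, with a median of -0.39. In that list eggless, an H3K9 methyltransferase in flies (-0.49), was closest to smedwi-2, RBBP5, a subunit of H3K4 methyltransferase complexes (-0.23), was closest to smedwi-3, and the extremes were SET1, an H3K4 methyltransferase (-0.55), and the histone variant gene h2a.z-1 (0.50).

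Cell cycle genes stand beside the smedwi genes because X1 cells are sorted as cycling cells. Of 12, 10 were lower and 2 higher, beside 27.1% and 25.8% of all genes tested, with a median log2 fold change of -0.36. One of the 10, RNRL, lost its call under 4 of 18 alternatives. The summed level of the 12 was 3321 to 3711 CPM in exoc3(RNAi) and 4017 to 4092 CPM in gfp(RNAi). POLD1, the catalytic subunit of DNA polymerase delta (-0.55), was closest to smedwi-2 and MCM6, a subunit of the replicative helicase (-0.25), was closest to smedwi-3. The largest fall was that of ERCC6L, a mitotic DNA translocase (-0.71). The largest rise was that of RRM2B, a small subunit of ribonucleotide reductase (0.39). Cyclin B was the other gene called higher, with mean levels of 140 CPM in exoc3(RNAi) and 117 CPM in gfp(RNAi). Its log2 fold change was 0.21 (adjusted p = 0.0014 by edgeR). In a sorted population a smaller share of cells with a transcript and less of it per cell cannot be told apart.

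Markers of other cells were also present and moved with the groups. All 20 genes of an epidermal lineage list were called lower, beside 27.1% of all genes tested. This list, like those of cell cycle, neuronal, muscle and intestinal genes, held mostly genes that the study had called changed in these libraries. Such counts are therefore not independent evidence. The epidermal genes had a median log2 fold change of -1.05. Their summed level was 1564 to 1601 CPM in exoc3(RNAi) and 3031 to 3086 CPM in gfp(RNAi). In the epidermal list p53, which is also a stem cell regulator (-0.26), was closest to smedwi-3, and pmp-4 (-1.77) had the largest fall. The epidermal progenitor gene prog-1 (-0.56, a call lost under robust dispersion estimation with an adjusted p of 0.093) was closest to smedwi-2. Relative to the summed epidermal reads both smedwi genes were higher. For smedwi-2 the ratio was 2.17 to 2.26 in exoc3(RNAi) and 1.54 to 1.56 in gfp(RNAi) (log2 difference 0.51), and for smedwi-3 it was 1.67 to 1.77 in exoc3(RNAi) and 1.03 to 1.05 in gfp(RNAi) (0.73).

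The neuronal, muscle and intestinal counts stand beside 27.1% of all genes tested called lower and 25.8% called higher. Of 8 neuronal genes, 4 were lower and 4 higher, though the calls of coe (lower) and prohormone convertase 2 (higher) were lost under 7 and 2 of 18 alternatives. Summed levels of the 8 were 567 to 582 CPM in exoc3(RNAi) and 532 to 547 CPM in gfp(RNAi). The extremes were synaptotagmin-1 (-0.34), also the closest to smedwi-2, and secreted peptide prohormone 1 (0.78), while SNAP25 (-0.28) was closest to smedwi-3. Of 7 muscle genes, 6 were lower and 1 higher, with sums of 349 to 360 CPM in exoc3(RNAi) and 427 to 434 CPM in gfp(RNAi), from myoD (-0.78) to myosin heavy chain A (0.71). A tropomyosin gene, TM1 (-0.53), was closest to smedwi-2 and a second TM1 gene (-0.35) closest to smedwi-3. Both intestinal gata456 genes were lower (-0.76 and -0.79), at sums of 6.18 to 7.33 CPM in exoc3(RNAi) and 10.003 to 12.5 CPM in gfp(RNAi). No gene of these 4 lists was at 0 in any library. The part of these other cells in the decrease of the smedwi genes was not tested.

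Finally, the genes whose pattern over the 6 libraries was most like that of each smedwi gene were sought among 1731 others with a mean of at least 100 CPM, by the root mean square (RMS) difference of centred log2 CPM. The closest to smedwi-2 was GNL2, a nucleolar GTPase, with an RMS difference of 0.011 and a log2 fold change of -0.47. It was followed by DDX46, a helicase of pre-mRNA splicing (-0.48), UBR3, a ubiquitin ligase (-0.50), HSPA4L, an Hsp70-family chaperone (-0.51), and the Tudor and KH domain gene SMESG000031739.1 (-0.50), at RMS differences of 0.018 to 0.020. The closest to smedwi-3 was the Tudor and RNA recognition motif gene SMESG000043684.1 (RMS difference 0.0088), which measured 523, 540 and 488 CPM in exoc3(RNAi), against 596, 605 and 593 CPM in gfp(RNAi).

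After it came CG1703, an ABC-family ATPase gene (-0.27), the unnamed SMESG000005857.1 (-0.29), SNW1, a splicing and transcription cofactor (-0.27), and Fir1, annotated as a zinc finger protein of pogo type (-0.28), at RMS differences of 0.011 to 0.016. Such profiles were common, since 139 genes lay within an RMS difference of 0.05 of smedwi-2 and 187 of smedwi-3. The smedwi genes were not close to each other by this measure. Their RMS difference was 0.11, which made smedwi-3 the 407th nearest gene to smedwi-2 and smedwi-2 the 618th nearest to smedwi-3. The libraries share depth and scaling across all genes, and these distances are descriptions without a test.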

How the data were processed

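The authors aligned single-end reads of stranded mRNA libraries with STAR 2.7.2b to the dd_Smes_g4 assembly and counted uniquely mapped reads per gene on the reverse strand with featureCounts 1.6.5, after conversion to fastq with bcl2fastq 1.8.4. Multi-mapping reads and reads on overlapping genes were not counted, so reads shared by near-identical copies are missing. The deposited values are raw counts, 1 table per library, and the 6 libraries were grouped by their titles. No row held reads without a gene.

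Counts were analysed with edgeR 4.0.16 in R 4.3.3. Genes kept by filterByExpr (minimum count 10, 14700 kept and 16217 left out) were scaled by TMM. The groups were compared by its quasi-likelihood F test (two-sided) in a model of group only, with Benjamini-Hochberg adjustment over all genes tested. The study itself used DESeq2, which was run as an alternative (DESeq2 1.42.0), as was limma 3.58.1. SE is the size of a log2 fold change divided by the square root of its F statistic. CPM values printed per library are plain shares of the assigned reads, whereas fold changes are TMM-scaled. The steps were tested on simulated data. Alternatives covered scaling, filters, tools, a fold requirement, a replicate block and leaving out each library. They also included a stricter threshold, an adjusted p under 0.01 in the main fit.

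No pair of libraries in a group differed by as little as sampling noise, with a chi-square per degree of freedom of 1.33 to 7.75. The study calls the libraries biological replicates, but does not say how many animals each held. The p-values set the difference between groups against the spread between these libraries, which edgeR estimates for each gene partly from all genes.

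Names come from the part of the study's gene annotation used here. The members and the gene lists were chosen with earlier results of these data known. The genes named were both smedwi genes, Smed-exoc3, every gene of the small RNA list, the genes of the other lists nearest to either smedwi gene in fold change or with the largest rise or fall, the 5 genes of most similar profile at 100 CPM or more on average, and the 2 next above and below in mean CPM. Genes outside this rule, chosen after their values were seen, were RPL27A, histone H2A.1, KHD-1, RNRL, coe, prohormone convertase 2 and set. Cyclin B also lay outside the rule and was named as a transcript used for ratios. Sequences, coordinates and transcript lengths were not used here, and the study's own fold changes and p-values were not used.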

Additional observations from a re-analysis of the deposited data

How the results depend on the processing

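The decrease of smedwi-2 kept its direction and its call under all 18 alternatives, with log2 fold changes of -0.50 to -0.41. That of smedwi-3 kept its direction under all 18 (-0.29 to -0.19) and its call under 17, the exception being the requirement of a fold above 1.2 (log2 fold change -0.26, adjusted p = 0.57). Leaving out each library in turn gave -0.50 to -0.45 for smedwi-2, -0.29 to -0.23 for smedwi-3 and -1.20 to -0.96 for Smed-exoc3 (edgeR, all called). It gave a difference in the log2 ratio of smedwi-2 to smedwi-3 of -0.23 to -0.21, and between 6642 and 8115 genes called. Left-out libraries gave 11 to 12 called genes in the small RNA list and 11 to 12 among the stem cell regulators. With library size as the only scaling the log2 fold changes were -0.43 for smedwi-2 and -0.21 for smedwi-3, and with upper quartile factors -0.41 and -0.19.

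Requiring a fold above 1.2 left 3151 genes called (1245 higher and 1906 lower), since the test is stricter by construction. Of the lists it left called 6 small RNA genes, 3 stem cell regulators, 10 chromatin regulators, 8 cell cycle genes and 19 epidermal genes. Scaling to smedwi-3 reads, added after the data were seen, brought the log2 ratio past the threshold at -0.22 (adjusted p = 0.00024 by edgeR), where the exact permutation test could not go below 0.1. Ranked within single libraries, smedwi-2 was at 28, 28 and 29 in exoc3(RNAi), compared with 17 by mean CPM over all libraries, and smedwi-3 at 51 in exoc3(RNAi) replicate 3, compared with 36. Of 87 further genes of the lists, none reversed under any alternative, and 6 (MOV10L1, set, RNRL, prog-1, prohormone convertase 2 and coe) lost their call under a setting other than the fold requirement.

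Same-numbered libraries did not deviate together (correlations of deviations over genes of -0.01, 0.01 and -0.03), so the numbers were not taken as pairs. With the replicate block 7642 genes were called, and log2 fold changes were -0.48 for smedwi-2 (adjusted p = 9.5e-08) and -0.26 for smedwi-3 (adjusted p = 2.1e-05, both by edgeR). The difference in log2 ratio taken within replicate numbers was -0.22 with an exact permutation p of 0.25, the smallest that 3 differences allow.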
